A study of Homo sapiens with 8 samples.

Results

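The 10 long noncoding RNA (lncRNA) genes described here are MALAT1, NEAT1, KCNQ1OT1, GAS5, SNHG1, SNHG3, SNHG5, SNHG8, ZFAS1 and EPB41L4A-AS1, out of 63568 genes in the count table. They were selected by name, with measured levels in view: SNHG3 was chosen because its reads were far higher in the knockdown, and MALAT1 because it is a known methylated RNA. Differences between the conditions are therefore given as a description, with no test. The RNA came from MIAPaCa-2, an established human pancreatic carcinoma line of epithelial type, carrying either a control short hairpin RNA (control cells) or a METTL3 short hairpin RNA (METTL3-KD cells). The methods name 1 METTL3-KD line, a gift, and do not describe other clones or hairpins. METTL3 is the catalytic subunit of the nuclear complex that writes N6-methyladenosine (m6A). In methylated RNA immunoprecipitation sequencing (MeRIP-seq), some of the fragmented RNA is kept as input and the remainder is pulled down with an m6A antibody. The 8 samples form 4 groups, an input and an m6A group for each of control and METTL3-KD cells, and every group has 2 samples with lane numbers in their titles. These were taken as sequencer lanes of 1 library, which the labels do not state outright, and were summed, so that no condition had a replicate. Reads per gene were analysed for the inputs, and peaks for the m6A libraries.

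MALAT1 and NEAT1 are neighbouring genes on chromosome 11 whose RNAs stay in the nucleus, MALAT1 in speckles rich in splicing factors and NEAT1 as the scaffold of paraspeckles. KCNQ1OT1 is the antisense RNA of an imprinted domain and acts in cis on its neighbours. The other 7 genes are hosts of small nucleolar RNAs (snoRNAs), which guide 2'-O-methylation (box C/D) or pseudouridylation (box H/ACA) of ribosomal and other RNAs. In such a gene the snoRNA is cut out of an intron and stays stable, whereas many of the spliced host RNAs are degraded by nonsense-mediated decay when they are translated. The level of a host and that of its guest can therefore be measured apart. METTL3 methylates adenosine mainly within the 5-base sequence GGACT and close variants.

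A few stretches carry the results on methylation and on snoRNAs. They are written 5' to 3' in DNA letters from GRCh37, the build the authors call hg19. The first is the only deposited peak in any of the 10 genes, at chr11:62620385-62620486 on the minus strand in SNHG1, with a GGACT and a GAACT in capitals.
SNHG1 control peak: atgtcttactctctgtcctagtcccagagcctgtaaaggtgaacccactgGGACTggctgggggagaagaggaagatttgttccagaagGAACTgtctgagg
The second is the 100-base stretch of MALAT1 with the most GGACT, at chr11:65267728-65267827 on the plus strand, shown because no peak was called on it. Its 2 copies of GGACT are in capitals. The copy near the 3' end lies in the hairpin whose methylation is known to open a uridine tract to the protein HNRNPC.
MALAT1 stretch: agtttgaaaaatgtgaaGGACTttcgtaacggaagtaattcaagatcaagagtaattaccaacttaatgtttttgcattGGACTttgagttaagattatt
The last are SNORA73B, a box H/ACA snoRNA at chr1:28835071-28835274, and a second stretch of SNHG3 at chr1:28833878-28834080, both on the plus strand. The ACA box at the 3' end is in capitals.
SNORA73B: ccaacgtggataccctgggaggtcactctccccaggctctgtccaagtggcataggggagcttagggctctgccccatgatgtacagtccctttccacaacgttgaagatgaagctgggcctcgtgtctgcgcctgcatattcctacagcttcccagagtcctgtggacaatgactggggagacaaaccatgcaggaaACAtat
SNHG3 stretch: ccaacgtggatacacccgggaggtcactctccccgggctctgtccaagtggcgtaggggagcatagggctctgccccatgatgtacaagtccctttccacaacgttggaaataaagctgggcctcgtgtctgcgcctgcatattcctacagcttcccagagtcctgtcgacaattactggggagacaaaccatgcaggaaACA

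The inputs differed in kind as well as in depth. Counts summed over genes came to 3237968 for the control input, which covered 2730 genes. For the METTL3-KD input they came to 1833005, over 10463 genes. The peak caller's headers give fewer input reads, 2880835 for the control and 1337448 for METTL3-KD cells. Some reads may therefore have been counted more than once, and the total counts used below are the summed counts. Reads per gene gathered at a lower mode of 511 reads for the control and 19.4 for METTL3-KD cells. By the peak caller's headers, the control input reads lay at 9291 distinct positions, with 310 reads per position, against 52141 positions with 25.7 reads per position in METTL3-KD cells. Among genes with at least 10 METTL3-KD reads, 77% had no control read. METTL3 itself had 0 reads in all 4 input lanes, so these counts do not check the knockdown. KRT8, a keratin of simple epithelia, had 10850 control and 1167 METTL3-KD reads, and KRT18 had 3535 and 1212. KRT19 had 1 and 201 reads, and the epithelial markers EPCAM and CDH1 had 0 in both. Of the 4 listed markers of other cell types that were matched, CD68 alone had reads, 0 in the control and 43 in METTL3-KD cells. The part of this difference in coverage in the values below was not tested.

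Of the 10 genes, 3 had at least 1 read in the control input and 7 in the METTL3-KD input. Only these 7 had at least 10 reads over both inputs, and the comparisons with the background cover them alone. No gene lay under a log2 ratio (METTL3-KD over control) of -2, where the background over the 9931 genes with at least 10 reads was 7.37%. A total of 5 of these 7 genes, SNHG3, GAS5, SNHG5, KCNQ1OT1 and ZFAS1, lay above 2, where the background was 79.1%. The median log2 ratio of all tested genes was 5.6, and 4 of these 5 genes had no control read, so a position above 2 did not set them apart from most genes. Ratios use trimmed mean of M values (TMM) scaling and a prior count of 2. In the plot of reads by lane, MALAT1 and NEAT1 were the genes with reads in every lane.

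**Figure D1:**
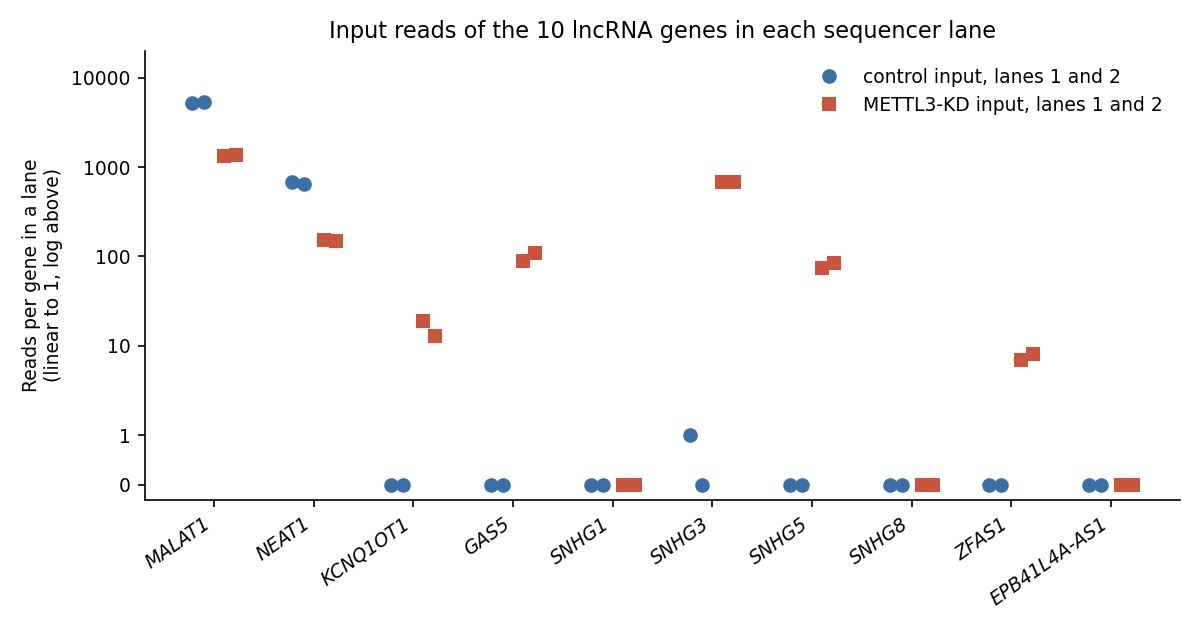
Reads of each lncRNA gene (x axis) in the 2 lanes of the control input (circles) and of the METTL3-KD input (squares), on an axis that is linear to 1 read and logarithmic above. MALAT1 and NEAT1 had reads in all lanes, 5 genes had reads almost only in METTL3-KD cells (SNHG3 had 1 control read), and SNHG1, SNHG8 and EPB41L4A-AS1 had 0 reads.

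MALAT1 (ENSG00000251562, chr11:65265111-65275544, plus strand) was read 5204 and 5325 times in the lanes of the control and 1317 and 1364 times in those of METTL3-KD cells. The lanes of each input lay close together and the libraries lay apart in raw reads, with the control higher. Per length, MALAT1 had a level of 312 CPM (reads scaled to library size) per kb in the control and 140 in METTL3-KD cells. It ranked first among lncRNA genes by reads in the control and second in METTL3-KD cells. Its share of all lncRNA reads was 11.3% (95% Wilson interval 11.1 to 11.5) in the control, against 5.27% (5.08 to 5.47) in METTL3-KD cells. These intervals, like all below, cover counting error only and treat reads as independent. With 310 control and 25.7 METTL3-KD reads per distinct position, reads are not independent molecules, and the intervals are too narrow.

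NEAT1 (ENSG00000245532, chr11:65190245-65213011, plus strand) was read 684 and 648 times in the control lanes, and 152 and 148 times in the METTL3-KD lanes. Its level was 18.1 CPM per kb in the control and 7.19 in METTL3-KD cells. NEAT1 made up 1.43% (1.35 to 1.51) of control lncRNA reads, and 0.59% (0.527 to 0.661) of those in METTL3-KD cells. In bulk RNA, less RNA per cell cannot be told apart from fewer cells with it. Both nuclear RNAs were a smaller share of lncRNA reads in METTL3-KD cells, an input in which 586 lncRNA genes had reads against 104 in the control.

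The direction of the difference for this pair depended on the scaling. With TMM the log2 ratio was 0.22 (95% interval of counting error 0.16 to 0.28) for MALAT1 and 0.04 (-0.14 to 0.22) for NEAT1, but by total counts it was -1.15 and -1.33, and after division by the lower mode it was 2.75 and 2.57. No direction is therefore given for either gene. A quantity that needs no scaling is their ratio within a library: 7.9 MALAT1 reads per NEAT1 read (7.47 to 8.37) for control and 8.94 (7.93 to 10.1) for METTL3-KD cells. These intervals overlap. Among the 1871 genes with at least 10 reads in both inputs, the median TMM log2 ratio was -0.61, and 32.2% of them lay above MALAT1 and 35.1% above NEAT1. The genes closest to NEAT1 in the plane of both levels were YWHAB, with 1355 control and 304 METTL3-KD reads, ZMYM4, with 1290 and 285, and YWHAG, with 1433 and 315. YWHAB and YWHAG encode 14-3-3 proteins.

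**Figure D2:**
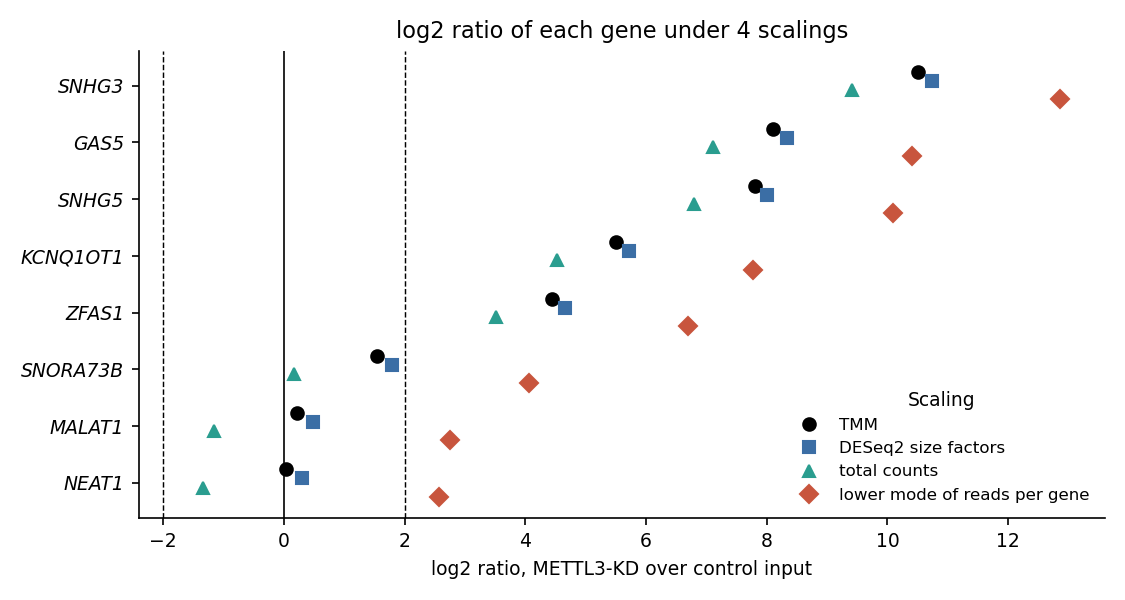
log2 ratio of METTL3-KD over control input (x axis) for 7 lncRNA genes and the snoRNA gene SNORA73B (y axis) under 4 scalings, shown by symbol, with dashed lines at -2 and 2. MALAT1 ranged from -1.15 to 2.75 and NEAT1 from -1.33 to 2.57. SNHG3, GAS5, SNHG5, KCNQ1OT1 and ZFAS1, with 0 or 1 control read, were above 2 under each of the 4.

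SNHG3 (ENSG00000242125, chr1:28832492-28837404, plus strand), the host of both SNORA73 copies, gave 1 and 0 reads in the lanes of the control, against 685 and 684 in those of METTL3-KD cells. The lane counts of the inputs did not overlap, and the METTL3-KD lanes, which are not replicates, differed by 1 read. The log2 ratio with the prior count was 10.51, the second highest of all tested genes, and 9.41 by total counts. Without the prior count the ratio of scaled reads was 6260 (1120 to 247000, or 10.13 to 17.92 in log2). That ratio rests on 1 control read and does not bound a change in expression. SNHG3 stood at rank 7 among lncRNA genes by reads in METTL3-KD cells and at rank 91 in the control. The nearest genes in the plane of both levels were MT-ND4, with 2 control and 1646 METTL3-KD reads, MYOF, with 1 and 906, and MT-ATP6, with 0 and 955. MT-ND4 is a mitochondrially encoded subunit of the respiratory chain, MT-ATP6 is one of ATP synthase, and MYOF is a membrane repair protein.

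SNORA73B, which lies in an intron of SNHG3, gave 790 and 798 reads in the control lanes, against 502 and 511 in METTL3-KD cells. Here the control was higher in raw reads, unlike for its host. Its CPM was 490 in the control and 553 in METTL3-KD cells, and it stood at rank 5 and rank 3 among snoRNA genes. The TMM log2 ratio was 1.54 (1.43 to 1.66), against 0.17 with total counts and 4.07 after division by the lower mode. The guest was thus present in both inputs while the host had 1 control read. Of the 6 matched snoRNA genes inside the 10 lncRNA genes it alone had reads, since SNORD78, SNORD12, SNORD12B, SNORD12C and SNORA13 had 0 in both inputs.

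The second stretch of SNHG3 printed above aligned to SNORA73B with 192 of 203 bases identical (94.6%). RefSeq places SNORA73A and SNORA73B in SNHG3 with their starts 1193 bases apart on GRCh38.p14, and the starts of the 2 stretches here were also 1193 bases apart. Among the genes of the count table matched to the annotation, SNORA73B has an entry of its own and the second stretch has none. In the annotation used here an exon of 1 of 3 SNHG3 transcripts covers the stretch, while 0 of 3 cover SNORA73B. In a count per gene, reads of the second snoRNA and of the spliced host cannot be told apart, and the part of the stretch in the SNHG3 reads was not tested. RCC1, a nuclear exchange factor that shares the strand and the start region of SNHG3, was at 0 in the control and at 43 and 42 reads in the METTL3-KD lanes.

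**Figure D3:**
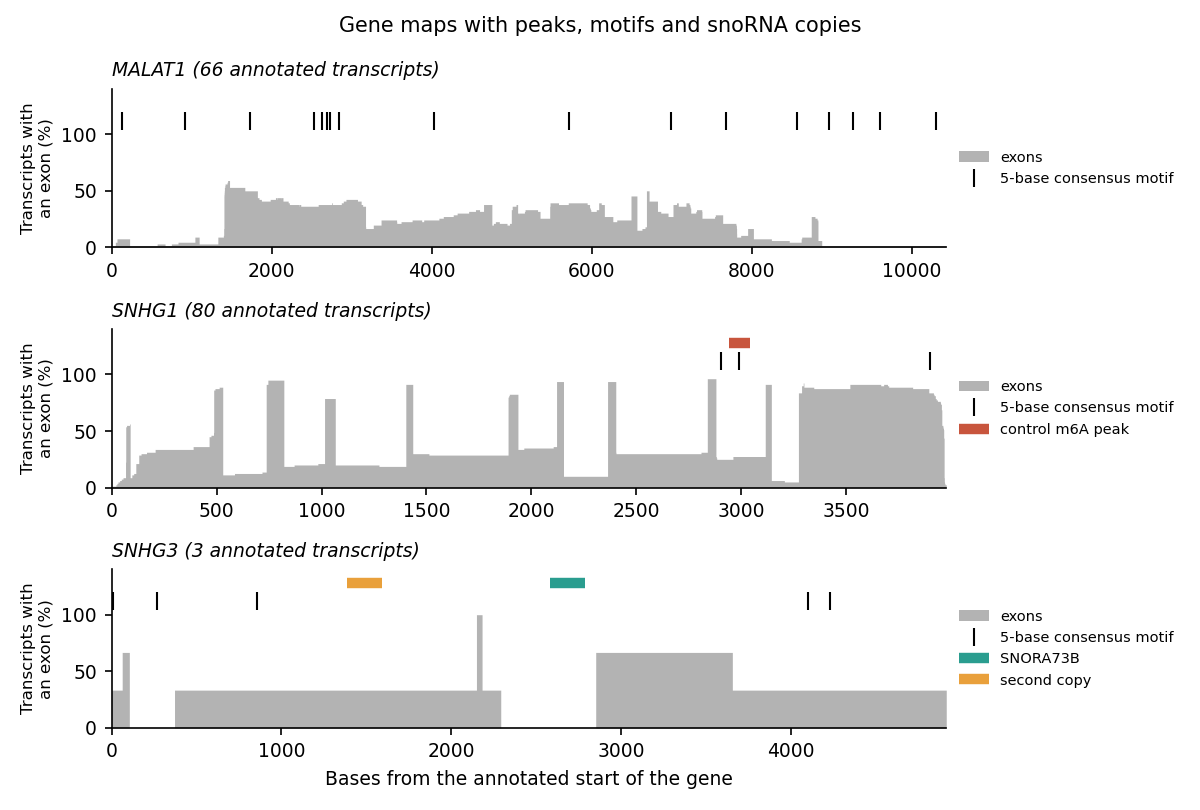
Maps of MALAT1, SNHG1 and SNHG3 by bases from the annotated gene start (x axis). Grey areas give the percentage of annotated transcripts with an exon there, ticks mark GGACT, and bars mark the control peak in SNHG1 and both SNORA73 stretches in SNHG3. The peak lies 2989 bases from the SNHG1 start at its summit, the second SNORA73 stretch lies in an exon of 1 of 3 SNHG3 transcripts, and MALAT1 has 17 GGACT and no peak.

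GAS5 (ENSG00000234741, chr1:173827697-173838020, minus strand), a host of box C/D snoRNAs that accumulates when growth is arrested, had 0 reads in both control lanes and 90 and 108 in the METTL3-KD lanes. At a floor of 3 control reads its scaled reads were at least 117-fold higher in METTL3-KD cells by total counts, the lowest of the 4 scalings, and 302-fold with TMM. SNHG5 (ENSG00000203875, chr6:86360209-86388650, minus strand), the host of the SNORD50 pair, had 0 reads in both control lanes and 74 and 85 in METTL3-KD cells, at least 93.6-fold higher by total counts and 242-fold with TMM. ZFAS1 (ENSG00000177410, chr20:47894715-47916137, plus strand), the host of SNORD12 and its relatives, was at 0 in the control lanes and at 7 and 8 reads in the METTL3-KD lanes, at least 8.83-fold higher by total counts and 22.9-fold with TMM. In each case both METTL3-KD lanes lay above both control lanes, which had 0 reads, and lanes are not replicates. These folds leave out the counting error of the METTL3-KD reads. With TMM, 95% binomial intervals that cover counting error in both inputs had lower ends of 243 for GAS5, 195 for SNHG5 and 16.4 for ZFAS1. The folds compare scaled reads of the libraries. They do not bound a change in expression, because the floor lies far under the lower mode of 511 control reads. In multiples of the lower mode of their own library, GAS5 stood at 10.2, SNHG5 at 8.2 and ZFAS1 at 0.774 in METTL3-KD cells.

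Neighbouring genes on the opposite strand had reads too. ZBTB37, which overlaps the 5' end of GAS5, had 0 control and 26 METTL3-KD reads, and ZNFX1, which overlaps ZFAS1, had 0 and 106. ENSG00000270117, an antisense lncRNA within MALAT1, had 0 and 18. The library kit marks strand, but the use of strand in counting was not stated. The antisense pair SH3BP5 and SH3BP5-AS1 had equal levels, 7.542 log2 CPM in the control and 4.185 in METTL3-KD cells. Such equal levels occur when reads are counted for both genes whatever the strand. Reads given above for overlapping genes may therefore be shared with their neighbours, and the extent of this was not tested.

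KCNQ1OT1 (ENSG00000269821, chr11:2618538-2721233, minus strand) had 0 reads in both control lanes and 19 and 13 in the METTL3-KD lanes, at least 18.8-fold higher by total counts and 48.8-fold with TMM, at the same floor. It was near the lower mode of the METTL3-KD library, at 1.65 multiples. SNHG1 (chr11:62619450-62623425, minus strand), SNHG8 (chr4:119199858-119206471, plus strand) and EPB41L4A-AS1 (chr5:111496223-111500515, plus strand) had 0 reads in all 4 lanes. For counting error only, a count of 0 allows up to 3 reads, or 0.927 CPM in the control and 1.64 CPM in METTL3-KD cells. With 310 reads per distinct control position, reads are not independent molecules, and this value does not cap the level of the RNA.

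**Figure D4:**
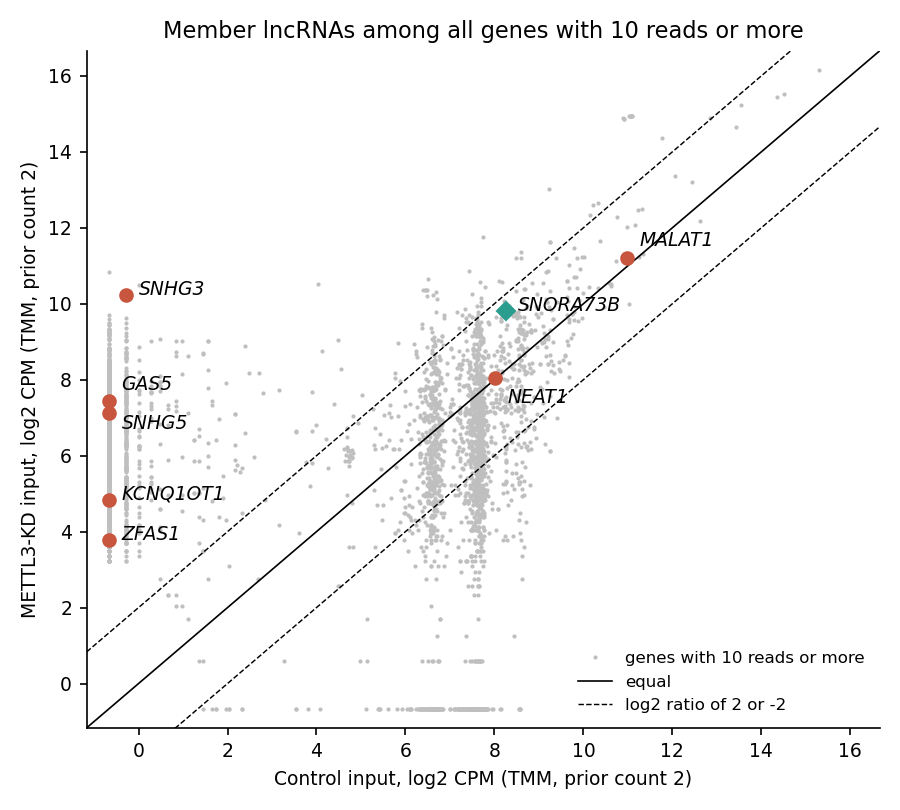
Level of every gene with at least 10 reads in the control input (x axis) and the METTL3-KD input (y axis), in log2 CPM with TMM scaling and a prior count of 2. The solid line marks equal levels and dashed lines a log2 ratio of 2 or -2; SNHG3 is second highest in log2 ratio among all genes, the 4 members with no control read sit at the left edge, and with this scaling MALAT1 and NEAT1 lie near the line of equal levels.

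The split of each gene's reads between lanes, which the choice of genes did not use, was compared with that of its whole library. In 10 two-sided exact binomial tests the lane 1 share ranged from 45.5% for GAS5 to 59.4% for KCNQ1OT1 in METTL3-KD cells, with 100% for the single SNHG3 read in the control. The lowest adjusted p was 0.841 (exact binomial, Benjamini-Hochberg). Lanes repeat the sequencing of a library and not the preparation of RNA. Other genes had the same 4 lane counts as KCNQ1OT1 in 5 cases and as ZFAS1 in 21, and none had those of MALAT1, NEAT1, GAS5, SNHG3 or SNHG5.

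In the m6A libraries, 1 of the 10 genes had a peak with q under 0.01 in control cells and 0 had one in METTL3-KD cells. Over all 55665 genes matched to the annotation the background was 3.81% in control and 1.48% in METTL3-KD cells. The shares of members are read against these values and do not set the genes apart. The control peak in SNHG1 is 102 bases long, with its summit at chr11:62620436. The summit lies in an exon of 22 of the 76 annotated transcripts that span it and in an intron of the rest. Its pileup was 2 fragments, its fold over input 3 and its -log10 q 6.42. The GGACT printed above begins at the summit, and the value there rests on a pileup of 2.

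The SNHG1 peak lies where a guest snoRNA is encoded. RefSeq (GRCh38.p14) places 9 small RNAs in SNHG1, with SNORD22, a box C/D snoRNA, next to SNORD31 on the 3' side. Counted from the first base of SNORD31, RefSeq has SNORD22 at bases 358 to 483. A stretch of SNHG1 aligned to an annotated SNORD31 copy on chromosome 13 with 62 of 69 bases identical, and counted from its first base the peak spans bases 379 to 480. The peak interval thus falls inside that of SNORD22. SNORD22 is not a gene inside SNHG1 in the annotation used here, and SNHG1 had 0 input reads in both conditions. A SNORD27 copy on chromosome 13 whose sequence aligned to SNHG1 with 59 of 67 bases identical had 0 control and 43 METTL3-KD reads, and which copy gave these reads is uncertain.

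No peak lay in MALAT1, although it is the most abundant lncRNA of the control input. The nearest peaks were 62.5 kb away in control and 65.6 kb away in METTL3-KD cells. Its longest transcript holds 17 GGACT in 10434 bases, or 1.63 per kb, and 23.5% of 9871 lncRNA genes with a transcript of at least 500 bases had a higher density, against a median of 0.871 per kb. NEAT1 held 19 GGACT (0.835 per kb) and KCNQ1OT1 79 (0.862 per kb), both close to the median. SNHG3 held 1 (0.383 per kb), SNHG5 1 (0.173 per kb) and SNHG1 3 (0.796 per kb). MALAT1 thus had the highest density of the 10 genes and no peak. Of the 20 lncRNA genes with the most reads, 1 had a peak in control and 0 in METTL3-KD cells. The m6A libraries had 7920 distinct positions in control and 4508 in METTL3-KD cells after the caller kept 1 read per position. A gene without a peak is not shown to lack m6A, and the part of depth in the missing peaks was not tested.

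Other lncRNAs of the snoRNA host family were listed beside the members, with TUG1, NORAD, OIP5-AS1 and CYTOR, which host no snoRNA. Of 25 genes in the table, 15 had at least 10 reads, of which 12 lay above 2 and 1 under -2, with a median log2 ratio of 6.3 against 5.6 over all tested genes. The 12 above 2 had no control read, and over all tested genes 79.1% lay above 2 and 7.37% under -2. SNHG14, the host of the imprinted snoRNA clusters of the Prader-Willi region, had 1039 control and 0 METTL3-KD reads. SNHG16 had 1023 and 328 reads, and SNHG29 had 861 and 503. OIP5-AS1 had 0 and 246. None of the tested genes on this list reached the 1369 METTL3-KD reads of SNHG3. Control peaks lay in NORAD, OIP5-AS1, SNHG17 and SNHG7, and a METTL3-KD peak in CYTOR.

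Of 14 proteins of the snoRNA particles in the table, 10 were tested, with 9 above 2 and 0 under -2 (median 5.99). NOP56, a core box C/D protein, had 4234 control and 307 METTL3-KD reads. RUVBL1, an assembly helicase, had 523 and 535 reads. Of 14 factors of nonsense-mediated decay, 13 were tested, with 10 above 2 and 2 under -2 (median 5.55). The 2 were SMG8, a regulator of the SMG1 kinase, with 1985 and 25 reads, and EIF4A3, of the exon junction complex, with 1086 and 53. SMG1, the kinase of UPF1, had 0 and 376 reads, and UPF1 itself 0 and 301. These splits followed those of all genes, since 8 of the tested snoRNA particle genes and 10 of the decay genes had no control read.

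Most of the proteins tied to NEAT1 or MALAT1 had reads in both inputs. Of 12 paraspeckle proteins, 7 had control reads and 12 had METTL3-KD reads, with 5 above 2 and 0 under -2 (median 1.64). Over all tested genes 79.1% lay above 2 and 7.37% under -2, with a median of 5.6. SMARCA4 had 2458 and 211 reads, SFPQ, which binds NEAT1, had 1941 and 442, and NONO, its partner, had 1196 and 840. HNRNPK, an RNA-binding protein, had 1219 and 807. Of 11 nuclear proteins that bind MALAT1 or share its speckles, 8 had control reads and 11 had METTL3-KD reads, with 5 above 2 and 0 under -2 (median 1.23). Both list medians were under that of all tested genes, and the part of coverage in this was not tested. HNRNPA2B1 had 2199 and 693 reads, HNRNPC 425 and 812, and SON, a speckle scaffold, 1079 and 197. With total counts the median shift over the 1871 genes with at least 10 reads in both inputs was -1.36. That is larger in size than the median of the MALAT1 list. Genes of these lists with a control peak included NONO, PSPC1, SFPQ and HNRNPC, and METTL3-KD peaks lay in PSPC1 and SRRM1.

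Around KCNQ1OT1, 13 genes of its imprinted domain and of the silencing machinery were in the table and 9 were tested, with 7 above 2 and 0 under -2 (median 5.64). The shares over all tested genes were 79.1% and 7.37% (median 5.6). KCNQ1, whose intron holds KCNQ1OT1, had 0 reads in both inputs. NAP1L4, a histone chaperone gene of the domain, had 0 and 218. Of the silencing enzymes, DNMT1 had 1646 control and 466 METTL3-KD reads and EZH2 had 1070 and 61. SLC22A18 of the domain had a control peak and EED a METTL3-KD peak.

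Many snoRNA host genes, like ribosomal protein genes, are known to start at a C followed by pyrimidines. A C followed by at least 4 C or T, searched on the coding strand from 10 bases before to 20 after the start, was present at 4 of 9 annotated starts of 8 members, against 38.4% of 35116 RefSeq promoters on GRCh38.p14. This was close to the share of all promoters.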

How the data were processed

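Input and m6A libraries of control and METTL3-KD MIAPaCa-2 cells were read on 2 lanes each. After removal of rRNA reads (Bowtie2), the authors mapped the rest to hg19 (HISAT2). The deposited counts, made with featureCounts, are whole numbers per Ensembl gene. Annotation release, strand use and treatment of reads with several alignments are not given in the sources used here. Peaks were called by the authors with MACS2 2.1.1 on pooled lanes. The deposited pileup is a signal, the fold is a ratio to local background, and the -log10 column holds q. Headers give a q limit of 0.05 and the methods 0.01, so q under 0.01 was used.

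Genes were placed by GENCODE release 44 on GRCh37 (55665 of 63568 matched). Lanes were summed because titles name lanes. Ratios used edgeR 4.0.16 (TMM, prior count 2, at least 10 reads over both inputs, floor 3 reads) in R 4.3.3, checked on simulated counts. The simulated counts were drawn from genes well read in both inputs, so genes with few or no control reads were not checked. With 1 library per condition no test between conditions was made. Stretches were aligned with blastn 2.17.0 (e-value 1e-05). Alternatives included DESeq2 1.42.0 size factors, total counts and lanes as replicates.

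Members and lists were chosen with earlier results of these data known. Named genes were the 10 members, guest snoRNAs with at least 10 reads, the 2 genes of each list with the most reads in each input, and the 3 genes nearest to the members with the highest and lowest ratio. Genes named outside this rule, such as overlapping genes, genes without reads and genes with peaks, were chosen after their values were seen.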

Additional observations from a re-analysis of the deposited data

How the results depend on the processing

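A total of 148 recomputed values covered the lncRNA genes and SNORA73B under other scalings, prior counts, read minimums, lane fits and peak settings, and 3 of them changed sign. A further 54 moved and 91 stayed the same, where a ratio moved if it left its 95% interval of counting error. Counts of genes, peaks and reads among the values cannot change sign. The sign changes were MALAT1 at -1.15 and NEAT1 at -1.33 under total count scaling, and NEAT1 at -0.02 without METTL3-KD input lane 1. The ratios of SNHG3, GAS5, SNHG5, KCNQ1OT1 and ZFAS1 were above 2 in all 66 values recomputed for them, from 2.37 for ZFAS1 to 13.17 for SNHG3. Because these genes had 0 or 1 control read, that outcome was close to fixed in advance and is no support for a difference. At a minimum of 50 reads 3 genes lay above 2, because KCNQ1OT1 and ZFAS1 had fewer reads. Leaving out a lane gave 4 to 5 genes above 2 and 0 under -2, and NEAT1 at -0.02 to 0.32. Relative to TMM, the median shift over the 1871 genes with at least 10 reads in both inputs was 0.26 (DESeq2 size factors), -1.36 (total counts) and 2.52 (lower mode). By the lower mode 7 genes lay above 2. The 1 control peak and 0 METTL3-KD peaks, and the snoRNA reads of 1588 and 1013, were the same under every alternative run.

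The lanes share only a number: their deviations in the control and METTL3-KD inputs correlated at -0.0159 over 1871 genes. With the lane as a replicate block in edgeR, 5 genes lay above 2 and 0 under -2, with MALAT1 at 0.41 and NEAT1 at 0.24, and the fit without the replicate block gave these same values.

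On this reading of the lanes no condition had a second library, METTL3 had no read in the table, and the control input held reads at few positions, so a gene at 0 control reads is not shown to be silent. Small RNAs inside hosts are mostly not separate genes in the table.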
